A study of Mus musculus with 4 samples.

Results

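The microRNA miR-324 was measured through both of its mature arms, mmu-miR-324-3p and mmu-miR-324-5p, which are 2 of the 375 microRNA assays read in every sample. The pair was chosen by assay name, because its 3p arm had the largest difference between knockout and wild-type embryos in the series. Total RNA came from whole mouse embryos of strain C57BL/6 at stage E18.5, shortly before birth. There were 2 ER-alpha KO (ERaKO) samples, which lack estrogen receptor alpha, and 2 wild-type (WT) samples. The labels give neither the knockout allele, nor the sex, nor the litter, nor whether 1 embryo or a pool went into a sample, so the spread between samples may be partly technical. Each TaqMan real-time PCR well gives a threshold cycle (Ct). The earlier the cycle, the more template was present, and 1 cycle corresponds to 2-fold if amplification is perfect.

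A microRNA gene is transcribed into a hairpin that the nucleases Drosha and Dicer trim to a short duplex, and the Argonaute protein then keeps 1 strand of it, from the 5′ side (5p) or the 3′ side (3p). The 2 arms of miR-324 carry different seeds, the bases that pair with target mRNAs. In human cells the terminal uridylyltransferases TUT4 and TUT7 add uridine to the miR-324 precursor, which moves the Dicer cut and favours the 3p arm over the 5p arm. In human medulloblastoma the 5p arm has been reported to repress the Hedgehog activators SMO and GLI1, and in mouse brain it represses the potassium channel Kv4.2. ER-alpha itself has been reported to bind the Drosha complex and to hold back the maturation of some microRNAs.

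The precursor and both mature arms are shown because the comparison rests on 2 products of 1 transcript. In the RefSeq tables (GRCm38.p6) the 89-base hairpin of Mir324 lies at chr11:70012043-70012131 on the plus strand. It falls inside the span of Acadvl (chr11:70010183-70015428), a gene of mitochondrial fatty acid oxidation on the minus strand; whether that place is intronic or exonic was not analysed here. In the hairpin, capitals mark the 5p arm first and the 3p arm after it. In the mature arms, capitals mark the seed, bases 2 to 8.
Mir324 hairpin: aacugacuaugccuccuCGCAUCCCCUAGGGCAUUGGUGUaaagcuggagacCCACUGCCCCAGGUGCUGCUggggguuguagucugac
mmu-miR-324-5p: cGCAUCCCcuagggcauuggugu
mmu-miR-324-3p: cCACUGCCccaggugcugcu

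The 5p arm (chr11:70012060-70012082) has 23 bases and a GC content of 60.9%. The 3p arm (chr11:70012095-70012114) has 20 bases and a GC content of 70%. A loop of 12 bases separates the arms, and in the minimum free energy structure from RNAfold (-36.9 kcal/mol) 15 bases of one arm pair with 15 bases of the other. Neither seed occurs in any other of the 1679 mature mouse microRNA names in the RefSeq table, so within that table each arm is alone in its seed family.

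Both arms amplified at a Ct of 35 or lower in all 4 samples, so both belong to the 229 microRNAs tested. The number of microRNAs detected at that limit was 259 to 260 in ERaKO samples and 254 to 290 in WT samples. WT replicate 1 stood apart. All its readings but those of U6 carry an added 0.273 cycles, and without this constant 307 of 341 wells that amplified fell no more than 0.1 cycle from a whole number of cycles, whereas 21.0% to 26.5% of wells did in the remaining samples. Tissue microRNAs of muscle, brain, liver, blood, epithelium and endothelium were detected in all samples, 11 of the 14 markers on the panel. The other 3, miR-291a-3p, miR-292-3p and miR-295, which mark pluripotent cells, missed the limit in WT replicate 1 only, with Ct values of 32.18 to 34.99 in the remaining samples.

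The 3p arm was read at Ct 33.96 and 32.04 in ERaKO replicates 1 and 2, and at 31.24 and 30.99 in WT replicates 1 and 2. Both knockout samples came up later than both wild-type samples, and ERaKO replicate 1 came up last, about 1 cycle before the detection limit. To set samples side by side, the median over the 229 tested microRNAs was subtracted in each, and the level is minus the result, in log2 units. The level of mmu-miR-324-3p was -5.77 and -4.21 in ERaKO replicates 1 and 2, and -2.01 and -3.62 in WT replicates 1 and 2. The 2 groups did not overlap, but the nearest samples, ERaKO replicate 2 and WT replicate 2, were 0.59 log2 units apart, while the replicates differed by 1.56 within ERaKO and by 1.62 within WT. The means were -4.99 ± 1.10 in ERaKO and -2.81 ± 1.14 in WT embryos (SD, n = 2 each), a log2 fold change of -2.18. This contrast chose the arm, so the value is given as a description, and the p of the panel-wide fit is not used for it. In RNA of a whole embryo, fewer cells that hold a microRNA and less of it per cell cannot be told apart.

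The 5p arm had the smaller mean difference between the genotypes, which follows in part from the choice of the 3p arm. It was read at Ct 30.58 and 31.23 in ERaKO replicates 1 and 2, and at 31.21 and 29.79 in WT replicates 1 and 2. Centred, the level of mmu-miR-324-5p was -2.38 and -3.41 in ERaKO replicates 1 and 2, and -1.98 and -2.42 in WT replicates 1 and 2. The groups overlapped, since ERaKO replicate 1 lay above WT replicate 2 by 0.04 log2 units, and ERaKO replicate 2 was the low sample. The means were -2.90 ± 0.72 in ERaKO and -2.20 ± 0.32 in WT embryos (SD, n = 2 each), a log2 fold change of -0.70. That value rested on single samples: without ERaKO replicate 1 the arms were nearly alike, at -1.40 for 3p and -1.21 for 5p, and without ERaKO replicate 2 they were at -3.03 for 3p and -0.26 for 5p. The order of the samples was not shared by the arms: ERaKO replicate 1 was the lowest sample for 3p and the second highest for 5p.

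**Figure D1:**
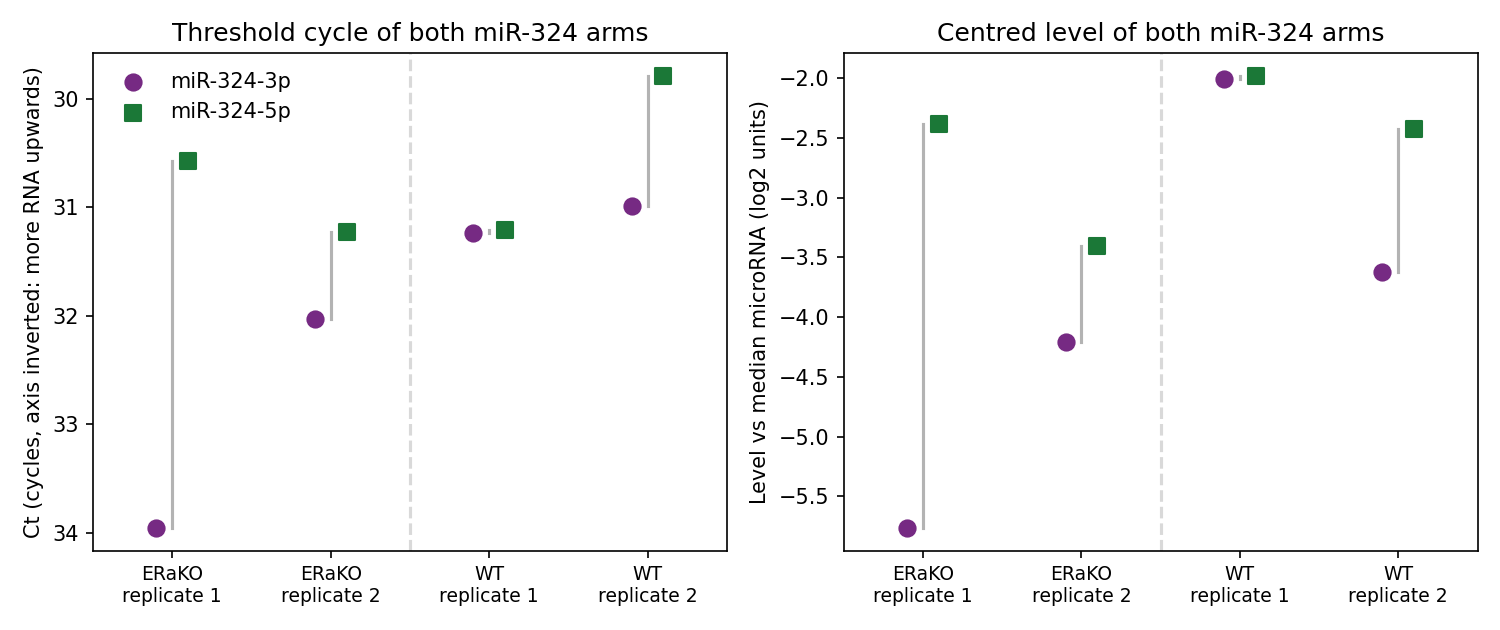
Ct (left, in cycles, axis inverted) and centred level (right, log2 units relative to the median tested microRNA) of miR-324-3p (circles) and miR-324-5p (squares) in the 2 ERaKO and 2 WT samples; grey lines span the 2 arms of a sample. The 3p arm lies lower in both ERaKO samples than in both WT samples, and the arms are farthest apart in ERaKO replicate 1 and nearly level in WT replicate 1.

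Among all 229 tested microRNAs, the 3p arm ranked 1st by absolute log2 fold change; the assay just outside the choice was mmu-miR-181c at -1.69, and the 5p arm ranked 48th. No microRNA passed an adjusted p of 0.05 in limma over all 229 (0%), and 10 had an unadjusted p under 0.05. The fit gave every assay the same standard error, 0.637 log2 units, so its p-values follow the fold change alone. They do not reflect the replicate spread of each assay. Both ERaKO samples lay below both WT samples for 14 microRNAs (6.11%) and above them for 76 (33.2%). The 3p arm is one of the 14, which follows in part from its choice, and the 5p arm is in neither set. The median log2 fold change over all 229 was 0.26.

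Both arms are late assays, and fold changes moved with the threshold cycle across the panel. The 64 tested microRNAs with a mean Ct of 30 or later had a median log2 fold change of -0.14, and both ERaKO samples lay below both WT samples for 8 of them. The 62 with a mean Ct before 26 had a median of 0.51, and 1 of them was separated in that way. Without WT replicate 1, over the same assays and with the same centring, those medians were 0.05 and 0.45. The 64 late assays include both arms, at a mean Ct of 32.1 (3p) and 30.7 (5p). Of the 64, 11 had a lower value than the 5p arm and 0 had a lower value than the 3p arm. The 0 was fixed by the choice of the 3p arm for the largest difference of the panel. The part of the late Ct in the differences of the arms was not tested.

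**Figure D2:**
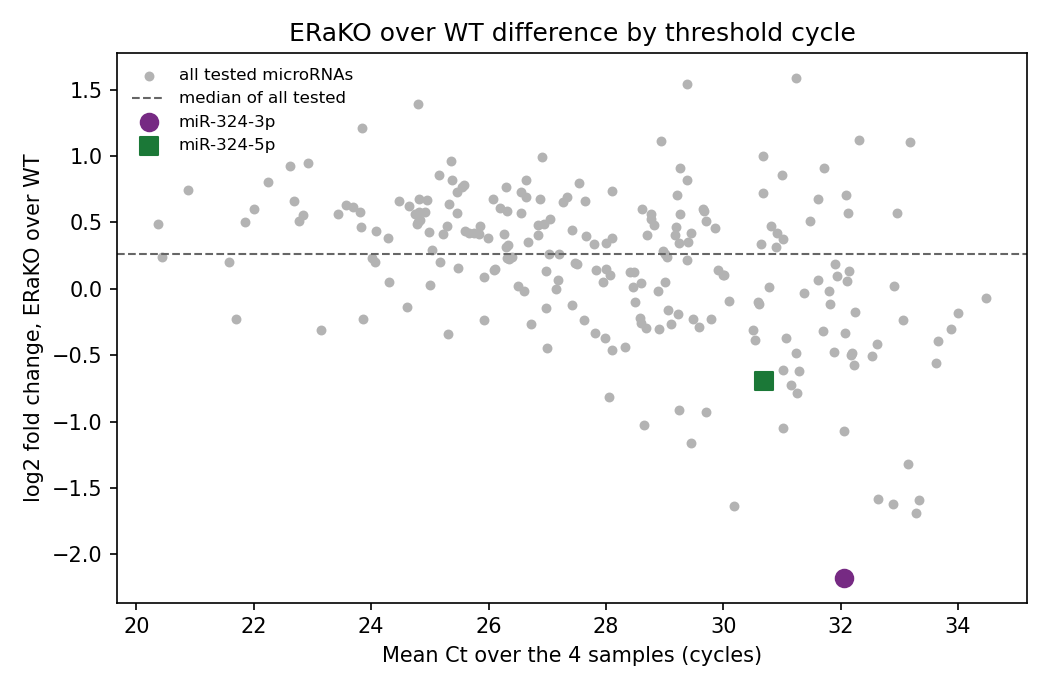
Log2 fold change of ERaKO over WT against the mean Ct over the 4 samples, 1 point per tested microRNA (n = 229), with miR-324-3p as a circle, miR-324-5p as a square and the median of all tested as a dashed line. The values spread downwards at late Ct. The lowest point is miR-324-3p at -2.18, which was chosen for its difference, while miR-324-5p, at -0.70, lies among other late assays.

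The 3p arm had the lower mean in ERaKO under each scaling tried, while the sign of the 5p difference turned with 1 control. Scaled to the average of the 5 small-RNA controls (U6, U87, Y1, snoRNA135 and snoRNA202), the 3p arm stood at -9.66 and -7.59 log2 units in ERaKO replicates 1 and 2, and at -6.64 and -6.82 in WT replicates 1 and 2, a log2 fold change of -1.90. On the same scale the 5p arm was at -6.28 and -6.78 in ERaKO replicates 1 and 2, and at -6.61 and -5.62 in WT replicates 1 and 2, a log2 fold change of -0.42. The 3p groups again did not overlap and the 5p groups again did. With 1 control at a time, the log2 fold change of the 3p arm ran from -2.16 with snoRNA202 to -1.30 with Y1, and its groups overlapped with U87. That of the 5p arm ran from -0.68 with snoRNA202 to 0.18 with Y1, so its sign turned with Y1, where the median of all 229 was 1.14; with snoRNA135 its groups did not overlap. Centred on the 64 late assays, a scaling chosen after seeing the data, the values were -1.94 for 3p and -0.46 for 5p. Neither arm overlapped between the groups on that scale, but the 5p groups nearly met. The 5p arm was at 0.99 and 0.37 in ERaKO replicates 1 and 2, and at 1.05 and 1.23 in WT replicates 1 and 2. The nearest pair includes WT replicate 1, whose readings lie near whole cycles. For the controls and the late assays, the share of all 229 that did not overlap is not given here. These separations thus have no background to be set beside.

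**Figure D3:**
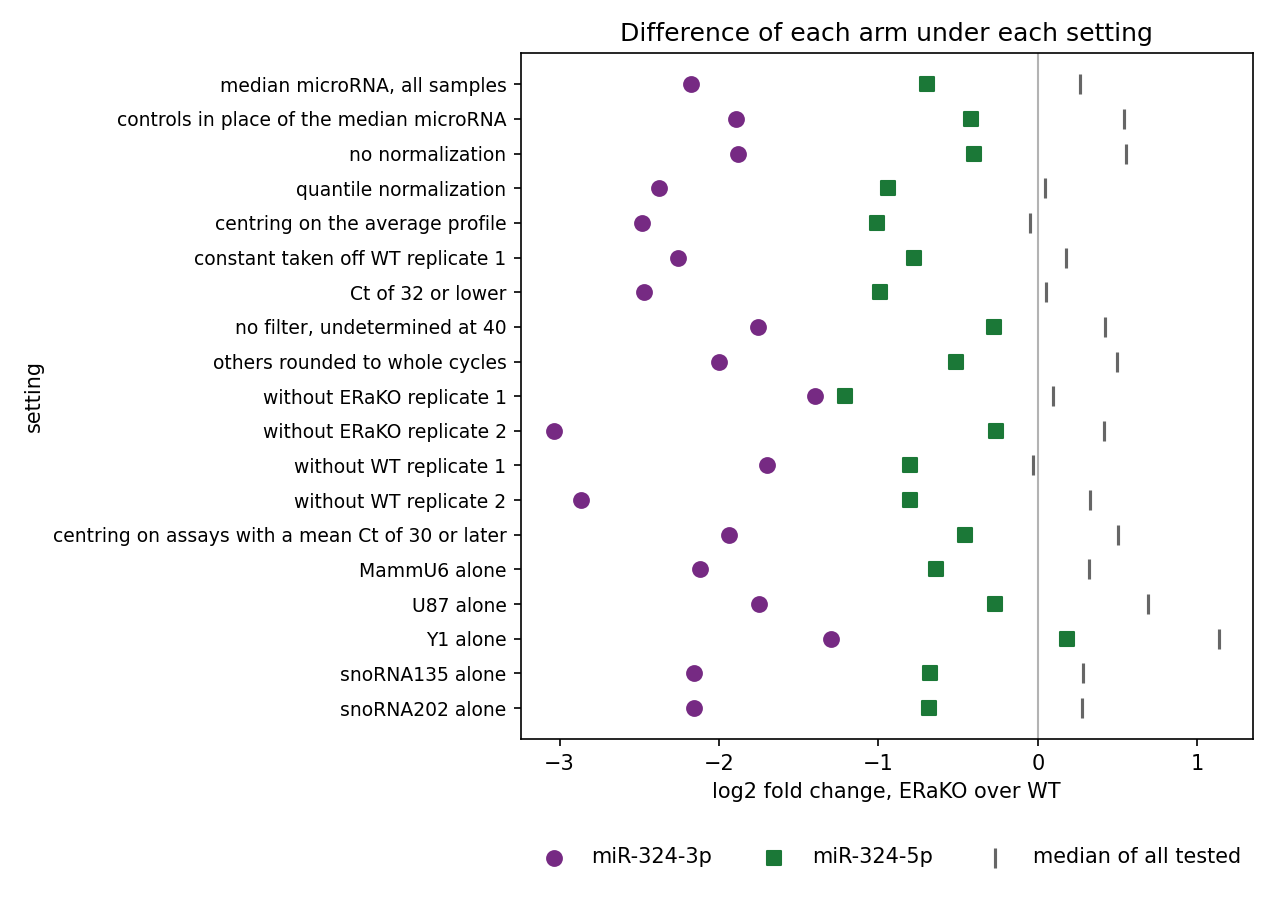
Log2 fold change of ERaKO over WT for miR-324-3p (circles), miR-324-5p (squares) and the median of all tested microRNAs (ticks) under each scaling, filter or left-out sample. The 3p arm lies below 0 in every setting drawn and the 5p arm in all but Y1 alone (0.18), and the distance between them is smallest without ERaKO replicate 1.

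The 2 arms were then compared within each sample, which needs no scaling. The 5p level minus the 3p level was 3.38 and 0.80 log2 units in ERaKO replicates 1 and 2, and 0.03 and 1.20 in WT replicates 1 and 2. As ratios, 5p over 3p was 10.4 and 1.75 in ERaKO replicates 1 and 2, and 1.02 and 2.30 in WT replicates 1 and 2. The 5p arm was read at the higher level in 3 samples, and in WT replicate 1, whose readings lie near whole cycles, the arms were not resolved. The mean over all samples was 1.35 ± 1.44 log2 units (SD, n = 4). An exact permutation test by sign flips gave a two-sided p = 0.125, the smallest p that 4 samples allow, so it could not pass 0.05. This value counts the unresolved sample as positive. The test reuses the 3p readings that served the choice, and the mean was 0.68 without ERaKO replicate 1. The assays may differ in efficiency, and PCR assays of this kind need not read every 3′ end of a mature arm alike, so the ratio sets 2 assays side by side rather than 2 molecule counts.

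Between the genotypes the arm difference averaged 2.09 ± 1.82 in ERaKO and 0.61 ± 0.83 in WT embryos (SD, n = 2 each), 1.48 log2 units higher in ERaKO. The groups overlapped: ERaKO replicate 2 lay below WT replicate 2. The higher mean came mainly from ERaKO replicate 1, without which the difference was 0.19. It was 2.77 without ERaKO replicate 2, 0.89 without WT replicate 1 and 2.07 without WT replicate 2. In WT replicate 1, the sample read close to whole cycles, both arms stood near cycle 31 once the constant was removed (30.97 for 3p and 30.94 for 5p), so their difference of 0.03 is known only as finely as those readings. With the other samples rounded to whole cycles too, the difference between the genotypes was 1.49.

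The panel held 36 microRNAs with an assay for each arm, and in 15 of them, miR-324 included, both arms were detected in all samples. The 5p arm was the higher in all 4 samples for 8 of the 15, among them miR-324 only if the 0.03 of WT replicate 1 is counted, and the 3p arm for 6; the order changed between samples for 1. By the absolute size of its mean arm difference miR-324 ranked 13th of 15, so its arms are among the more evenly read ones. By the range of the arm difference over the 4 samples it ranked 2nd, with 3.36 log2 units against a median of 1.73. That range runs from WT replicate 1 to ERaKO replicate 1, and the choice of the 3p arm for its contrast favours a wide range.

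By the absolute change of the arm difference between ERaKO and WT, miR-324 ranked 2nd of the 15. The choice of the 3p arm for its contrast largely fixes a high rank, so this is a description. The 1st was miR-199a, a mesenchymal microRNA, at -2.16 (-0.38 without WT replicate 1), and the 3rd was miR-339 at -1.29 (-1.26 without it). The median absolute change was 0.62. In miR-339 the arm difference was -3.47 and -3.19 in ERaKO replicates 1 and 2, and -2.01 and -2.07 in WT replicates 1 and 2, so its replicates lay close together and its groups apart. In miR-324 neither held. The WT replicate 1 value of miR-339 also comes from readings near whole cycles, so it is known only as finely as those readings. The arm difference of ERaKO lay above that of WT in both samples for 1 of the 15 (6.67%) and below it for 3 (20%). The rank of miR-324 rested on ERaKO replicate 1: it was 14th without that sample, 1st without ERaKO replicate 2, 4th without WT replicate 1 and 3rd without WT replicate 2.

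**Figure D4:**
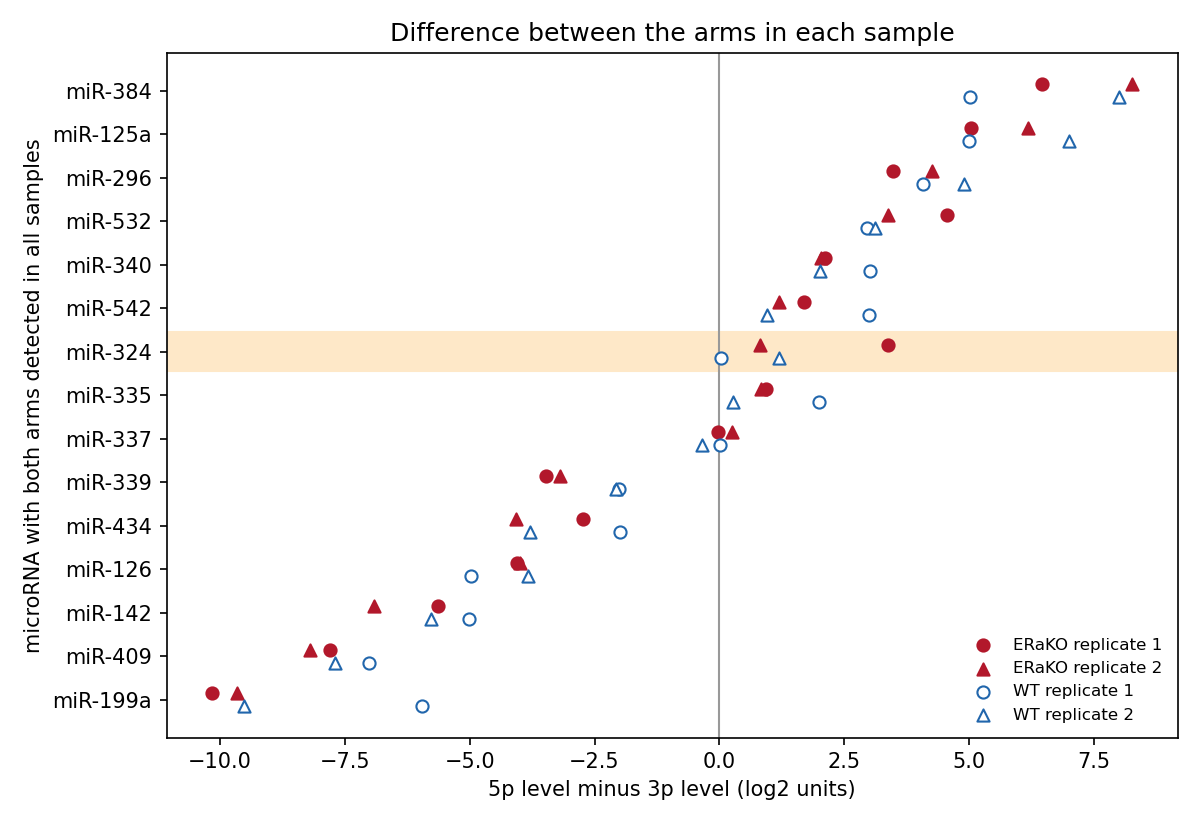
The 5p level minus the 3p level (log2 units) in each sample for the 15 microRNAs with both arms detected, sorted by their mean, with ERaKO samples filled, WT samples open and miR-324 shaded. In miR-324 the ERaKO replicate 1 point, at 3.38, lies apart from the other 3, which run from 0.03 to 1.20 with ERaKO replicate 2 between the WT samples.

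Centred on the median, the spread between replicates of the 3p arm was large for this panel. Its 2 ERaKO samples differed by 1.56 log2 units, the 6th largest gap of the 229, where the median gap was 0.44. Its 2 WT samples differed by 1.62, the 17th largest, against a median of 0.59. For the 5p arm the gap was 1.02 in ERaKO, the 31st largest, and 0.45 in WT, the 138th. On this scale the 3p arm thus carried both the largest difference between the genotypes and some of the largest differences within them. These ranks were taken over all 229, and the late assays were not compared apart. The WT gap depended on the scaling. The 3p Ct was 31.24 and 30.99 in WT replicates 1 and 2, where the median Ct was 29.23 and 27.36. Scaled to the 5 controls, the 3p arm stood at -6.64 and -6.82 in WT replicates 1 and 2. In ERaKO replicates 1 and 2 it stood at -9.66 and -7.59, so there the replicates stayed apart.

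In each sample the arms belonged to the lower part of the tested microRNAs. Only 1.31% and 9.17% of the 229 had a lower level than the 3p arm in ERaKO replicates 1 and 2, against 28.4% and 14.8% in WT replicates 1 and 2. For the 5p arm the shares were 22.3% and 16.6% in ERaKO replicates 1 and 2, and 31.4% and 25.3% in WT replicates 1 and 2. These places compare assays whose efficiencies are unknown.

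The assays with the most similar pattern were found by the root mean square distance between levels centred on their own mean over the 4 samples. For the 3p arm they were mmu-miR-34c (0.68 log2 units), mmu-miR-344 (0.70) and mmu-miR-181a (0.72), where the median distance was 1.53. All 3 had their highest level in WT replicate 1, as the 3p arm did. For the 5p arm they were mmu-miR-221 (0.19), mmu-miR-467c (0.22) and mmu-miR-142-5p (0.23), where the median was 0.65. All 3 had their lowest level in ERaKO replicate 2, as the 5p arm did. The arms were not close to each other: the 5p arm was the 42nd nearest of 228 to the 3p arm, at 1.25, and the 3p arm the 222nd nearest to the 5p arm. With 4 samples such likeness is a description only.

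Other microRNAs linked to miR-324 by function or place were read beside it. Of the microRNAs reported with miR-324-5p to repress Hedgehog activators in human medulloblastoma, mmu-miR-125b-5p was read and miR-326 had no assay on the panel. The level of mmu-miR-125b-5p was 2.39 and 2.97 in ERaKO replicates 1 and 2, and 3.03 and 3.02 in WT replicates 1 and 2, a log2 fold change of -0.34 that did not pass the test (limma adjusted p = 0.939). Both ERaKO samples were below both WT samples, the nearest pair by less than the ERaKO samples differed from each other. The precursors of the let-7 family, which restrains proliferation as tissues differentiate, and of its relative miR-98 are also substrates of TUT4 and TUT7. Of these 9 assays 0 passed the test in either direction, as did 0 of all 229. The median log2 fold change of the 9 was 0.15, beside 0.26 over all 229. Their values ran from -0.29 for mmu-let-7a to 1.59 for mmu-miR-98. The nearest microRNA genes with an assay on the panel, Mir497 and Mir195a, begin about 223 kb further along the same strand. Their assays mmu-miR-497 and mmu-miR-195 had log2 fold changes of -0.09 and 0.41 and did not pass the test (limma adjusted p = 0.965 and 0.939).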

How the data were processed

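The deposited values, handled here as a score, are Ct values per well, per the file headers, from TaqMan assays on an Applied Biosystems 7900HT over 40 cycles, per the labels. The threshold, baseline and any normalization are not given in the sources used here. U6 is the mean of 4 wells. Wells written as undetermined, and the 39 wells of WT replicate 1 above cycle 40, were taken as not amplified. Lines without an assay were left out, as was a plant control read in WT replicate 1 only.

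Levels are minus the Ct centred on the median of the microRNAs at a Ct of 35 or lower in all samples. The background fit was limma 3.58.1 in R 4.3.3 (lmFit, eBayes, group only, two-sided, Benjamini-Hochberg over 229 microRNAs), tested on simulated data. Python 3.11.15, pandas 2.3.3, RNAfold 2.7.2 and matplotlib 3.10.9 were used otherwise. PCR gives no read depth, and 2 samples a group limit the precision.

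The members, lists and tests were chosen with earlier results of these data known. The named assays are both arms, the next by fold change, the 3 most similar to each arm, the 3 arm pairs with the largest change, any assay with the same seed, the Hedgehog and let-7 lists, and the controls; Mir497 and Mir195a were added by position. Alternatives were other scalings, filters and variances, each sample left out, and the replicate number as a block. Centring on late assays, scaling to 1 control at a time and the ranks without each sample were added after seeing the data.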

Additional observations from a re-analysis of the deposited data

Results flagged for a closer look

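A plant control assay, ath-miR159a, gave a signal outside the comparisons, at a Ct of 29.3 in WT replicate 1. That is earlier than both miR-324 arms in the same sample (31.24 for 3p and 31.21 for 5p). It was read in that sample only, so it has no value to set beside it in the others.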

How the results depend on the processing

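With all samples kept and no scaling to a single control, the log2 fold change of miR-324-3p ran from -2.49 (centring on the average profile) to -1.75 (no filter, undetermined wells at cycle 40), and that of miR-324-5p from -1.01 to -0.27 under the same settings. Scaled to 1 control, settings added after seeing the data, 3p ran from -2.16 to -1.30 and 5p from -0.68 to 0.18, with Y1 alone turning the sign of 5p; the cause was not tested. At a Ct of 32 the 3p arm was no longer among the tested assays, and its value changed only through the centring. Leaving out each sample gave -3.03 to -1.40 for 3p, -1.21 to -0.26 for 5p, 0.19 to 2.77 for the change of the arm difference, and 0.68 to 1.80 for the mean arm difference (exact permutation p = 0.25, the smallest 3 samples allow). The count of microRNAs past the adjusted threshold in limma was 0 in these settings, where a lone sample is assumed to vary like the other group, with 1 exception. The fit that had the replicate block in its design called 1 assay, miR-324-3p, which had been chosen for this contrast. Same-numbered samples deviated together (r = 0.37 over 229 assays, which are not independent), but 2 pairs with no label for what a number marks were not treated as pairs. The late Ct of both arms and 2 samples a group limit every value here.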
